A study of Mus musculus with 9 samples.

Results

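Protocadherins are adhesion proteins of the cadherin superfamily, and their messenger RNA was followed here in the mouse hippocampus across a strain model of autism and its treatment. Every gene whose symbol starts with Pcdh was taken, which gave 70 of the 57180 genes of the table. Of these, 58 lie in the alpha cluster (14 genes), the beta cluster (22 genes) and the gamma cluster (22 genes: 12 of type A, 7 of type B and 3 of type C). The other 12 are single genes outside the clusters: the delta-1 genes Pcdh1, Pcdh7, Pcdh9 and Pcdh11x, the delta-2 genes Pcdh8, Pcdh10, Pcdh17, Pcdh18 and Pcdh19, and Pcdh12, Pcdh15 and Pcdh20. RNA came from male mice in 3 groups of 3. MAN@SKI II mice were BTBR T+ Itpr3tf/J mice (BTBR) given a brain-directed nanomicelle that carries an inhibitor of sphingosine-1-phosphate signalling, injected daily at 40 mg/kg through a tail vein over 7 days. Model mice were BTBR mice given vehicle, and Con mice were C57BL/6J mice given vehicle, which is named as saline in one label and as PBS in another. All mice were 5 weeks old at the start and 6 weeks old at collection, after behavioural tests. BTBR mice are an inbred line used to model autism, with little social approach and much self-grooming, so Model against Con compares 2 strains that differ across the whole genome, and MAN@SKI II against Model compares treatment within BTBR.

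Clustered protocadherins give neurons a surface identity. Each neuron transcribes a small set of the alternative first exons of a cluster, chosen largely at random through promoters bound by CTCF and cohesin, and proteins that match between cells recognise each other, which lets the branches of a neuron avoid one another. In the alpha and gamma clusters each variable first exon is spliced to constant exons that all genes of that cluster share, whereas beta genes have no such constant exons. The C-type genes (Pcdhac1, Pcdhac2, Pcdhgc3, Pcdhgc4 and Pcdhgc5) are expressed more evenly than the rest. Single protocadherins are transcribed from their own loci, mark regions and circuits of the brain, and act in axon growth, synapse formation and synapse loss.

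Total counts were 14751054 to 18827093 per library, and levels are given as normalised CPM, which are counts scaled to the library total times its TMM factor. At these depths 3 counts equal 0.159 to 0.203 CPM. MAN@SKI II 2 had the lowest TMM factor, 0.960, against 0.998 to 1.01 in the other 8 libraries. Hippocampal neuron markers were present in every library (summed CPM of 5 excitatory markers 4520 to 4903 in MAN@SKI II, 4642 to 5017 in Model and 4526 to 4704 in Con). Among them, Spink8 was called lower by edgeR in Model against Con (log2 fold change -1.52, adjusted p 0.000157). Spink8 was also called lower in MAN@SKI II against Con (-1.35, edgeR adjusted p 0.000358). Choroid plexus markers differed between strains: the summed CPM of 15 genes was 152 to 484 in MAN@SKI II and 129 to 469 in Model, against 1206 to 3238 CPM in Con, and 1 of the 15, Slc4a5, was at 0 in at least 1 library. The summed CPM of 5 oligodendrocyte markers was 2229 to 2445 in MAN@SKI II and 2593 to 2849 in Model, against 4115 to 4834 CPM in Con, and none of them was at 0 in any library. Astrocyte markers (5) summed to 1498 to 1572 CPM in MAN@SKI II, 1474 to 1564 in Model and 1764 to 1796 in Con. Microglia markers (4) summed to 90.8 to 111.5 CPM in MAN@SKI II, 76.2 to 84.7 in Model and 105 to 122 in Con. These markers were split: 2 of the 4 had a positive log2 fold change in Model against Con (range -1.03 to 0.31). In MAN@SKI II against Con 1 of the 4 was positive (range -1.17 to 1.04). C1qb alone was called by edgeR, lower in both comparisons. Meninges markers (4) summed to 73.6 to 81.9 CPM in MAN@SKI II, 72.5 to 85.9 in Model and 66.9 to 71.4 in Con. Of these 4, only 1 had a positive log2 fold change in Model against Con, and 1 in MAN@SKI II against Con. A wider list of 10 meninges and fibroblast genes summed to 287 to 475 CPM in MAN@SKI II, 293 to 460 in Model and 444 to 528 in Con. Inhibitory neuron markers (5) summed to 804 to 852 CPM in MAN@SKI II, 726 to 806 in Model and 733 to 785 in Con. A fit with the choroid plexus level as a covariate is given beside each protocadherin whose call was lost in it, and the part of other cell types was not tested.

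All 3 clusters lie on chromosome 18 in the deposited coordinates (GRCm39), with the alpha cluster at 37063237 to 37320714, the beta cluster at 37397991 to 37657532 and the gamma cluster at 37794846 to 37974926. The 14 alpha genes all end within 10 bases of each other, and so do the 22 gamma genes. In the GENCODE M21 annotation, matched by gene ID, each alpha gene shared 2860 to 2864 exon bases with other alpha genes, which is 38.0% to 54.9% of its exon length. Each gamma gene shared 2116 to 3157 exon bases with other gamma genes, or 27.8% to 66.8%. Among the 22 beta genes, Pcdhb21 and Pcdhb22 alone shared exon bases (455). How reads over shared exons had been assigned to a gene is not given in the sources used here, so the level of a single alpha or gamma gene is uncertain. The symbol Pcdha11 stands on 2 gene IDs, and both were kept.

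Per kilobase of exon, single genes spanned a wide range of levels. Pcdh1, an adhesion protein also known from airway epithelium, was the highest with a mean of 50.8 CPM per kb over the 9 libraries (range 42.3 to 57.6). Pcdh20 followed at 25.9 CPM per kb (23.7 to 33.6), and its range overlapped neither that of Pcdh1 nor that of Pcdh8. The means of Pcdh8 (15.7), Pcdh19 (10.7), Pcdh10 (8.13), Pcdh17 (7.74) and Pcdh9 (6.93 CPM per kb) came next, and each of these ranges overlapped that of its neighbour in the order. Pcdh7 averaged 3.29 CPM per kb, with a range that overlapped that of Pcdh9. Pcdh18 (1.10), Pcdh15 (0.549) and Pcdh11x (0.508 CPM per kb) stood below Pcdh7 without overlap. Pcdh12, known from endothelium, was lowest at 0.0896 CPM per kb.

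Within the clusters a few genes carried much of the level. In the alpha cluster Pcdhac2, a C-type gene needed for the spacing of serotonergic axons in mouse, had 8.10 CPM per kb (6.73 to 9.75), while the other 13 alpha genes averaged from 0.148 (Pcdha8) to 1.51 CPM per kb (Pcdha12). Pcdhac2 took 37.0% to 44.5% of the alpha counts in every library. In the beta cluster means ran up to 4.97 CPM per kb in Pcdhb9 and 3.72 in Pcdhb17, and Pcdhb17 had the largest mean share of the cluster's counts, 10.9%. Pcdhb1 had 1 to 5 counts per library and was the 1 protocadherin that did not pass the filter on low counts. In the gamma cluster Pcdhgb8 had the highest mean, 23.9 CPM per kb, with a range of 0.156 to 61.9, and 15.2% of the cluster's counts on average. Pcdhgc3, which acts on dendrite branching in mouse, followed with 15.9 CPM per kb (13.8 to 18.2) and 12.3% of the counts. Pcdhga1 (12.0 CPM per kb), Pcdhgc4 (11.1) and Pcdhgc5 (10.4) came next, and the range of Pcdhgc5 (7.49 to 13.3) was far narrower than those of the other two.

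**Figure D1:**
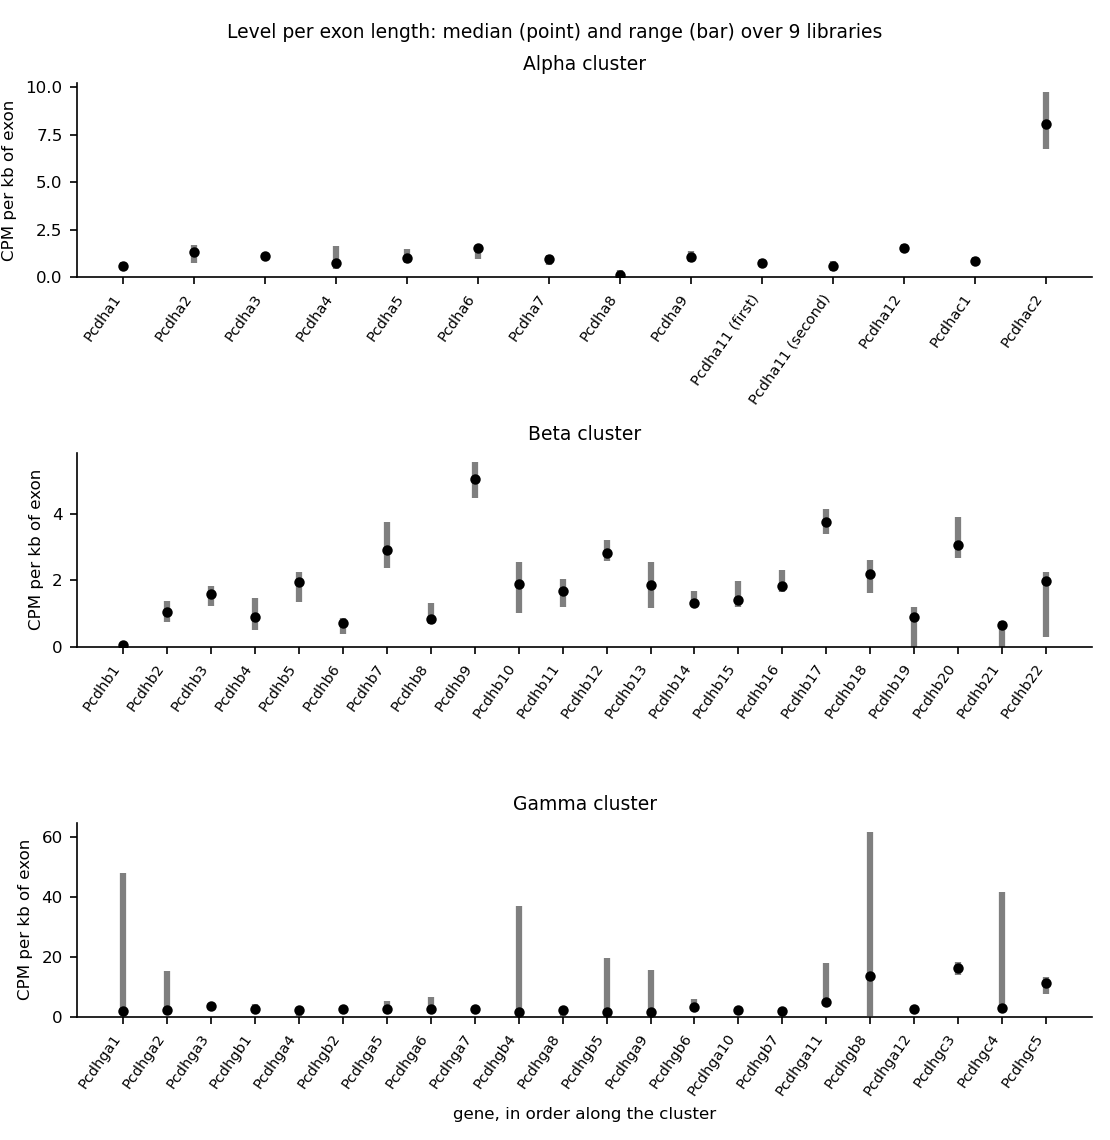
Level of each clustered protocadherin in CPM per kb of exon (vertical axes, one scale per cluster) in the order of the genes along each cluster, with the median as a point and the range over 9 libraries as a bar. Pcdhac2 stands above the other alpha genes, beta means lie between 0.0540 (Pcdhb1) and 4.97 (Pcdhb9), and the bars of several gamma genes, such as Pcdhgb8 (0.156 to 61.9 CPM per kb), are far longer than those of Pcdhgc3 (13.8 to 18.2). Pcdha11 (first) and (second) are the 2 gene IDs with that symbol.

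The summed level of a cluster varied little between libraries. The gamma cluster summed to 747, 701 and 733 CPM in MAN@SKI II mice, to 729, 700 and 746 CPM in Model, and to 678, 678 and 713 CPM in Con. The highest and lowest of these 9 sums differed by 1.10-fold, and the ranges of each pair of groups overlapped. The alpha cluster summed to 115 ± 7.07 CPM in MAN@SKI II, 122 ± 10.9 CPM in Model and 110 ± 6.81 CPM in Con (SD, n = 3 each), with overlapping ranges. The beta cluster summed to 156 ± 10.7 CPM in MAN@SKI II, 170 ± 7.69 CPM in Model and 154 ± 12.0 CPM in Con (SD, n = 3 each). Its ranges in Model (161.7 to 176.8 CPM) and Con (140.1 to 161.6 CPM) did not overlap, by a margin far smaller than either SD. The 12 single genes summed to 1106 ± 42.7 CPM in MAN@SKI II, 1144 ± 51.5 CPM in Model and 1080 ± 41.9 CPM in Con (SD, n = 3 each), again with overlapping ranges. On the log2 scale the differences in these sums lay between -0.13 (beta, MAN@SKI II against Model) and 0.15 (alpha, Model against Con). For the gamma cluster they were 0.073 in Model against Con and 0.076 in MAN@SKI II against Con, and without Pcdhgb8, its gene of most counts, 0.17 and 0.20. These sums are descriptions without a test. In a bulk sample, fewer cells of a type and less RNA per cell cannot be told apart.

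**Figure D2:**
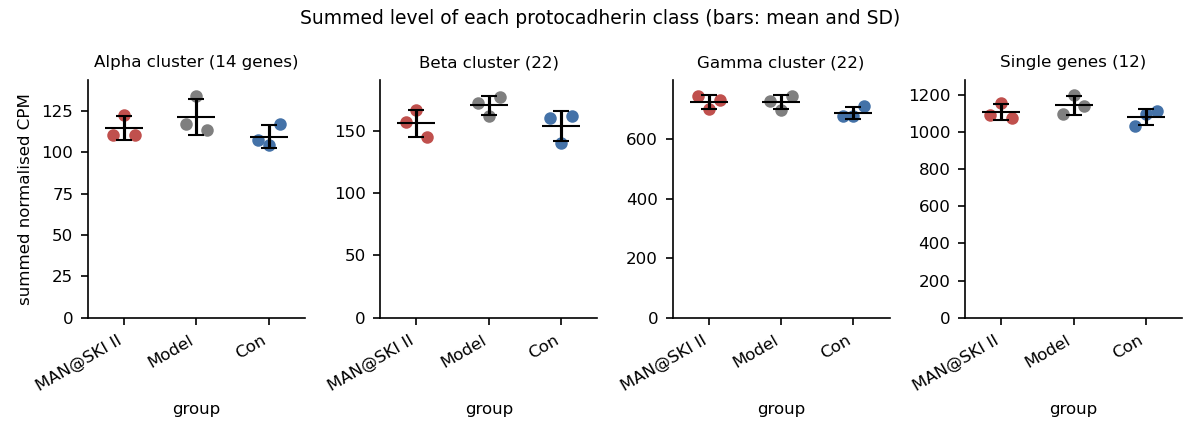
Summed normalised CPM (vertical axes, starting at 0) of the alpha, beta and gamma clusters and of the 12 single genes in each library (points) by group, with the mean and SD as black bars. The 3 groups lie close together in every class, for example 701 to 747 CPM in MAN@SKI II, 700 to 746 CPM in Model and 678 to 713 CPM in Con for the gamma cluster.

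Single genes of the gamma cluster behaved otherwise. Pcdhgb8 had 266, 4.60 and 1.66 CPM in the 3 MAN@SKI II libraries, 0.719, 35.0 and 273 CPM in Model, and 65.4, 62.4 and 285 CPM in Con. Each group thus held a library above 260 CPM and another at least 4-fold lower, and the highest and lowest of the 9 differed by 397-fold although the lowest rested on 12 counts. Pcdhga1 had 6.79, 9.62 and 253 CPM in MAN@SKI II mice, 258, 9.51 and 7.53 CPM in Model, and 8.92, 14.2 and 10.6 CPM in Con. It was high in MAN@SKI II 3 and Model 1 alone. Pcdhgb4 had 92.9, 215 and 8.44 CPM in MAN@SKI II mice, 7.07, 150 and 14.4 CPM in Model, and 5.40, 6.96 and 7.46 CPM in Con. It was high in MAN@SKI II 1, MAN@SKI II 2 and Model 2, and the ranges of MAN@SKI II and Model overlapped. Pcdhgc4, which is required for survival of neurons in mouse, had 16.5, 17.1 and 15.1 CPM in MAN@SKI II mice, 10.2, 11.9 and 14.999 CPM in Model, and 227, 233 and 14.6 CPM in Con. Con 1 and Con 2 were high, while Con 3 lay within the range of the BTBR libraries.

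Pcdhga11 and Pcdhgc5 varied less between libraries. Pcdhga11 had 18.0, 27.4 and 85.4 CPM in MAN@SKI II mice, 19.5, 22.5 and 17.5 CPM in Model, and 22.1, 26.5 and 27.0 CPM in Con. It was high in MAN@SKI II 3, and the other 8 libraries lay between 17.5 and 27.4 CPM. Pcdhgc5 had 59.3, 66.4 and 101.6 CPM in MAN@SKI II mice, 99.1, 69.5 and 57.1 CPM in Model, and 85.8, 85.9 and 92.2 CPM in Con. All groups overlapped in both genes, and neither passed in any comparison.

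The gene with the largest share of the gamma counts differed from library to library. It was Pcdhgb8 in MAN@SKI II 1, Model 3 and Con 3, Pcdhgb4 in MAN@SKI II 2 and Model 2, Pcdhga1 in MAN@SKI II 3 and Model 1, and Pcdhgc4 in Con 1 and Con 2. This leading gene took 30.6% to 35.6% of the cluster in MAN@SKI II, 21.5% to 36.7% in Model and 33.6% to 40.0% in Con, and the 2 highest genes together took 40.3% to 53.0% over all libraries. Further genes stood out in some libraries: Pcdhgb5 reached 132 CPM in Model 2, Pcdhga9 reached 67.7 and 87.5 CPM in Model 1 and Model 3, and Pcdhga2 reached 71.8 CPM in MAN@SKI II 2. These genes were picked after their values were seen. Low values also occurred: Pcdhga4 had 1.16 CPM in Model 2 and 0.648 and 0.907 CPM in Con 2 and Con 3, against 8.46 to 13.4 CPM in the other 6 libraries. Summed by type, the A genes spanned 142 to 468 CPM, the B genes 58.0 to 417 CPM and the C genes 164 to 396 CPM over the 9 libraries, so the types varied far more than their total. Some gamma genes were steady throughout, among them Pcdhga10 (8.58 to 10.7 CPM), Pcdhgc3 (75.7 to 100.1 CPM) and Pcdhga3 (14.98 to 21.1 CPM).

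**Figure D3:**
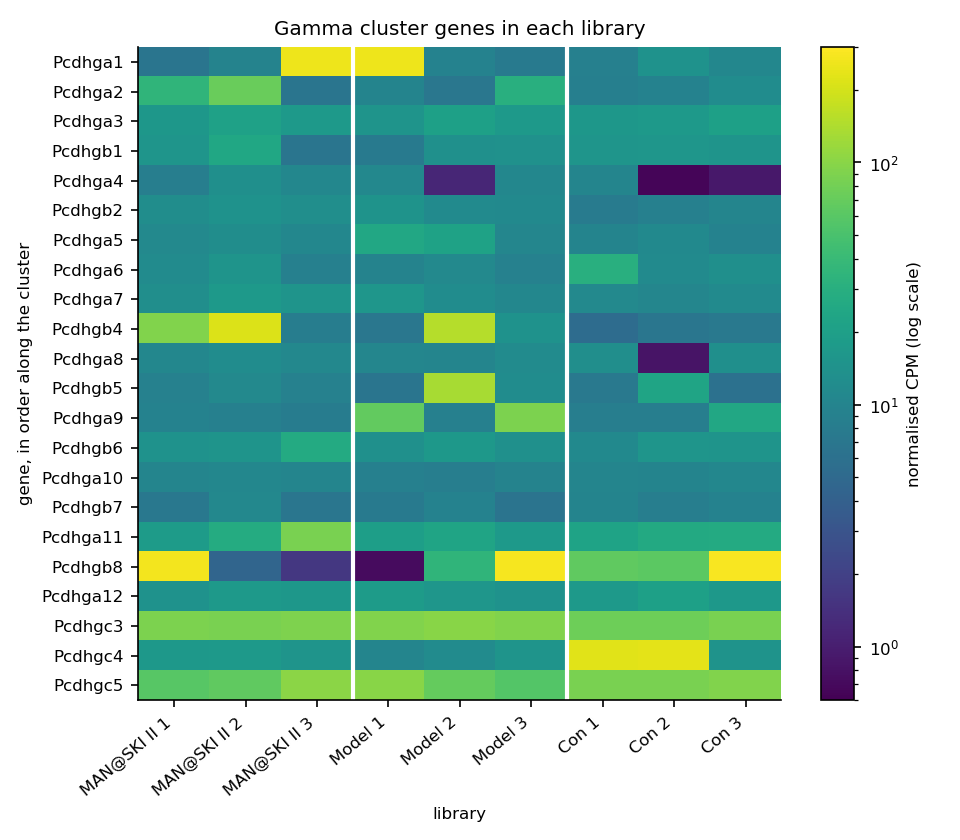
Normalised CPM (colour, log scale) of the 22 gamma genes, in order along the cluster from top to bottom, in the 9 libraries, with white lines between the groups. Bright cells, such as Pcdhgb8 in MAN@SKI II 1 (266 CPM), Model 3 (273 CPM) and Con 3 (285 CPM), fall on different genes in different libraries of the same group, while the rows of Pcdhgc3 and Pcdhga10 are even.

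As a measure of this spread, 9 of 22 gamma genes (40.9%) differed by more than 5-fold between their highest and lowest library, and all 9 did so within at least 1 group. Over all 17550 genes tested the share above 5-fold was 5.70%, and among the 12371 with a mean of at least 5 CPM it was 1.22%. In the alpha cluster 1 of 14 genes (Pcdha8, 0.192 to 2.02 CPM) passed this mark, in the beta cluster 3 of the 21 that passed the filter, and among the single genes 0 of 12. The median biological coefficient of variation of edgeR was 33.1% for gamma genes, 14.8% for alpha, 13.6% for beta and 12.8% for single genes, against 12.1% over all genes tested. These figures describe the spread and were not tested. The largest ratios of highest to lowest library among alpha genes were 10.5-fold in Pcdha8 and 4.03-fold in Pcdha4. The part of read assignment over shared exons in the gamma values was not tested.

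The 3 beta genes with wide spread lay near the end of the cluster. Pcdhb19 had 6.97, 0 and 0 CPM in MAN@SKI II mice, 8.51, 0 and 7.08 CPM in Model, and 6.38, 0 and 8.26 CPM in Con. It was at 0 counts in 4 libraries, with at least 1 in each group, and near 7 CPM in the other 5. Pcdhb21 was at 0 in MAN@SKI II 2 and between 2.35 and 3.57 CPM elsewhere. Pcdhb22 was low in MAN@SKI II 3 (1.92 CPM), Con 2 (1.89 CPM) and Con 3 (5.06 CPM), and lay between 11.5 and 14.8 CPM in the other 6. A count of 0 allows up to 3 counts, which is at most 0.203 CPM here.

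In Model against Con, 3 of the 69 protocadherins tested changed with edgeR's quasi-likelihood test at a Benjamini-Hochberg adjusted p under 0.05: Pcdh19 and Pcdhgb2 rose and Pcdh9 fell. Over all genes 7.64% were called, so the share of protocadherins was not above the background. DESeq2 called 6, among 1574 calls over all genes, and limma-voom 2, among 1333. Values of Model and Con did not overlap for 10 protocadherins that were higher and 5 that were lower in Model, which is 21.7% of the 69, against 32.3% of all genes. The median log2 fold change was 0.11 over the protocadherins and 0.00 over all genes. With the choroid plexus level as a covariate, edgeR called 162 genes in all, 152 of them among the 1340 called without it, and no protocadherin. This level, a mean log2 CPM, was 0.281 to 2.35 in the BTBR libraries and 3.51 to 4.98 in Con. It separates the strains fully, so the covariate and the strain cannot be told apart in this fit. The covariate widened the standard errors of the called protocadherins. edgeR called 7 of the 15 choroid plexus genes in Model against Con, all lower. The count of protocadherins was 5 without MAN@SKI II 2 and 1 without Model 1, Model 2, Con 1 or Con 2. The 1 gene was Pcdh19 without Model 1 or Con 2 and Pcdh9 without Con 1. Without Model 2 it was Pcdhga9, and the calls of Pcdh19, Pcdh9 and Pcdhgb2 were all lost.

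Pcdh19 is an X-linked delta-2 gene at chrX:132483609-132589736 (GRCm39), whose product works with N-cadherin and whose human counterpart is mutated in an epilepsy of girls. It had 112, 130 and 107 CPM in MAN@SKI II mice, 118, 133 and 122 CPM in Model, and 92.5, 99.3 and 89.9 CPM in Con. All 6 BTBR libraries were above all 3 Con libraries, and the 2 BTBR groups overlapped. The log2 fold change was 0.41 ± 0.08 (SE) in Model against Con, with an edgeR adjusted p of 0.0126, and 0.31 ± 0.08 (SE) in MAN@SKI II against Con, with an adjusted p of 0.0473. The call in Model against Con was lost without Model 2 (adjusted p 0.0566), Con 1 (0.0566) or Con 3 (0.0629), at log2 fold changes of 0.36 to 0.39. The call in MAN@SKI II against Con lay close to the threshold and was lost on leaving out any of 8 libraries (adjusted p 0.0551 to 0.166), with MAN@SKI II 3 as the exception, and with limma-voom (0.0598) or only the 6 libraries fitted (0.0969). With the choroid plexus covariate the log2 fold changes were 0.40 ± 0.16 (SE) in Model against Con (adjusted p 0.420) and 0.30 ± 0.16 (SE) in MAN@SKI II against Con (0.611), close to those without it.

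Pcdh9, a delta-1 gene at chr14:93250846-94128115 (GRCm39) whose product adheres to itself between cells, had 53.1, 69.3 and 51.3 CPM in MAN@SKI II mice, 24.2, 27.3 and 32.8 CPM in Model, and 40.7, 59.4 and 65.1 CPM in Con. The 3 Model libraries were the lowest of the 9, and MAN@SKI II and Con overlapped. Its log2 fold change in Model against Con was -0.97 ± 0.19 (SE), with an edgeR adjusted p of 0.0145. The call was lost without Model 1 (adjusted p 0.0580), Model 2 (0.0592) or Con 2 (0.0534). With the choroid plexus covariate the log2 fold change in Model against Con was -1.44 ± 0.32 (SE) and the adjusted p 0.0930, so the difference was larger while the call was lost. With both BTBR groups set against Con the log2 fold change was -0.45 and the adjusted p 0.124. The oligodendrocyte marker sum, given above, was lower than in Con in both BTBR groups, and its part in the Pcdh9 values was not tested. Rows of other genes that overlap the Pcdh9 locus held at most 25 counts in a library.

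The promoters of these 2 single genes are shown because they are the single protocadherins that changed. The sequences are the 250 bases before the RefSeq start (GRCm38.p6), minus strand, at chrX:133688994-133689243 for Pcdh19 and chr14:93890680-93890929 for Pcdh9, and capitals mark every match, on either strand, to the 4 motifs named after them.
Pcdh19: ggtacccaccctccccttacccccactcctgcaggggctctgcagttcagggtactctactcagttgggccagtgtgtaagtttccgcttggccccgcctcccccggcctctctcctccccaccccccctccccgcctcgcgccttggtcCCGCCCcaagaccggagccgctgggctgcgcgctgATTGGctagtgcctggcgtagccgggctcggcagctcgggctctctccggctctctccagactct
Pcdh9: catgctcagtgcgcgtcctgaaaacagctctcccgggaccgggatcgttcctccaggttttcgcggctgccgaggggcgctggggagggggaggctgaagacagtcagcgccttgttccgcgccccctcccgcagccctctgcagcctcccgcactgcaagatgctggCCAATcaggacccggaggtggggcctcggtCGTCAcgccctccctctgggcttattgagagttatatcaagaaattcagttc
The RefSeq table held promoters for 9 of the 12 single genes, with 10 starts in all, each covering 250 bases before and 50 after the start. In such windows TGACG, the core of the cAMP response element, occurred in 20.8% of all 32851 promoters and, among the single protocadherins, at Pcdh9 and Pcdh10. The GC box GGGCGG occurred in 35.7% of all promoters and at Pcdh10, Pcdh17, Pcdh18 and Pcdh19. The letters TATAAA, known as the TATA box, occurred in 13.6% of all promoters and at Pcdh8 and Pcdh15. The letters CCAAT occurred in 37.4% of all promoters and in 9 of the 10 protocadherin promoters, the exception being Pcdh7. A match is a run of letters and not a shown binding site.

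Pcdhgb2, a type B gamma gene, had 12.7, 14.1 and 13.0 CPM in MAN@SKI II mice, 14.6, 11.8 and 11.4 CPM in Model, and 7.94, 8.90 and 10.1 CPM in Con. The 6 BTBR libraries all exceeded the 3 Con libraries. Its log2 fold change was 0.49 ± 0.13 (SE) in Model against Con, with an edgeR adjusted p of 0.0482, and 0.56 ± 0.13 (SE) in MAN@SKI II against Con, with an adjusted p of 0.0252. The first of these calls was lost on leaving out any library but MAN@SKI II 2 (adjusted p 0.0540 to 0.188) and with limma-voom (0.0595). The second was lost without MAN@SKI II 1 (0.0528), Con 1 (0.108) or Con 2 (0.0852). With the choroid plexus covariate both calls were lost and the log2 fold changes were 0.20 ± 0.23 (SE) in Model against Con (adjusted p 0.826) and 0.30 ± 0.22 (SE) in MAN@SKI II against Con (0.784). Pcdhgb2 varied by 1.83-fold over the 9 libraries, and 43.4% of its exon length is shared with other gamma genes.

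Of the clustered genes that did not pass in Model against Con, 4 had an edgeR adjusted p under 0.1: Pcdhgc3, Pcdhgc4, Pcdhb10 (0.0946, log2 fold change 0.62) and Pcdhga5 (0.0961, log2 fold change 0.87). Pcdhga5 was high in Model 1 and Model 2 (24.7 and 21.6 CPM), while Model 3 (10.4 CPM) lay within the Con range of 9.49 to 11.5 CPM. Pcdhgc3 had 88.8, 86.2 and 90.4 CPM in MAN@SKI II mice, 93.3, 100.1 and 91.7 CPM in Model, and 75.7, 76.6 and 86.3 CPM in Con. The Model libraries lay above the Con libraries, at a log2 fold change of 0.26 ± 0.07 (SE) and an edgeR adjusted p of 0.0522, and DESeq2 gave 0.0301. Pcdhac2 had 49.2, 51.8 and 46.1 CPM in MAN@SKI II mice, 47.5, 57.4 and 48.3 CPM in Model, and 39.6, 41.6 and 47.6 CPM in Con, with overlap between Model and Con and an edgeR adjusted p of 0.183. Pcdhgc4 had a log2 fold change of -3.67 ± 0.97 (SE) in Model against Con and an edgeR adjusted p of 0.0830, and its difference rested on Con 1 and Con 2 as described. Pcdhgb8, with -0.42 ± 2.08 (SE), Pcdhga1, with 3.02 ± 2.00 (SE), and Pcdhgb4, with 3.11 ± 1.58 (SE), had standard errors many times those of the steady genes and did not pass.

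By class in Model against Con, where 7.64% of all genes were called and 19.6% had an unadjusted p under 0.05, edgeR called 0 of 14 alpha genes, of which 2 had an unadjusted p under 0.05 (14.3%). Neither DESeq2 nor limma-voom called any. edgeR called 0 of 21 beta genes, with 3 at an unadjusted p under 0.05 (14.3%) and 0 by either other tool. Of the 22 gamma genes 1 rose, while DESeq2 called 4 and limma-voom 0. Of the 12 single genes 1 rose and 1 fell, and both other tools called 2. The median log2 fold changes were 0.11 for alpha, 0.10 for beta, 0.14 for gamma and 0.04 for single genes. The most abundant beta genes overlapped between all groups. Pcdhb9 had 13.9, 15.9 and 14.5 CPM in MAN@SKI II mice, 17.0, 13.6 and 15.4 CPM in Model, and 15.9, 15.9 and 14.6 CPM in Con. Pcdhb17 had 18.5, 17.5 and 16.9 CPM in MAN@SKI II mice, 19.3, 16.2 and 17.8 CPM in Model, and 16.01, 15.9 and 17.9 CPM in Con, with all groups overlapping. Pcdha12, second in the alpha cluster by level, had 9.39, 7.35 and 7.48 CPM in MAN@SKI II mice, 7.01, 8.64 and 6.97 CPM in Model, and 8.005, 8.55 and 9.11 CPM in Con.

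**Figure D4:**
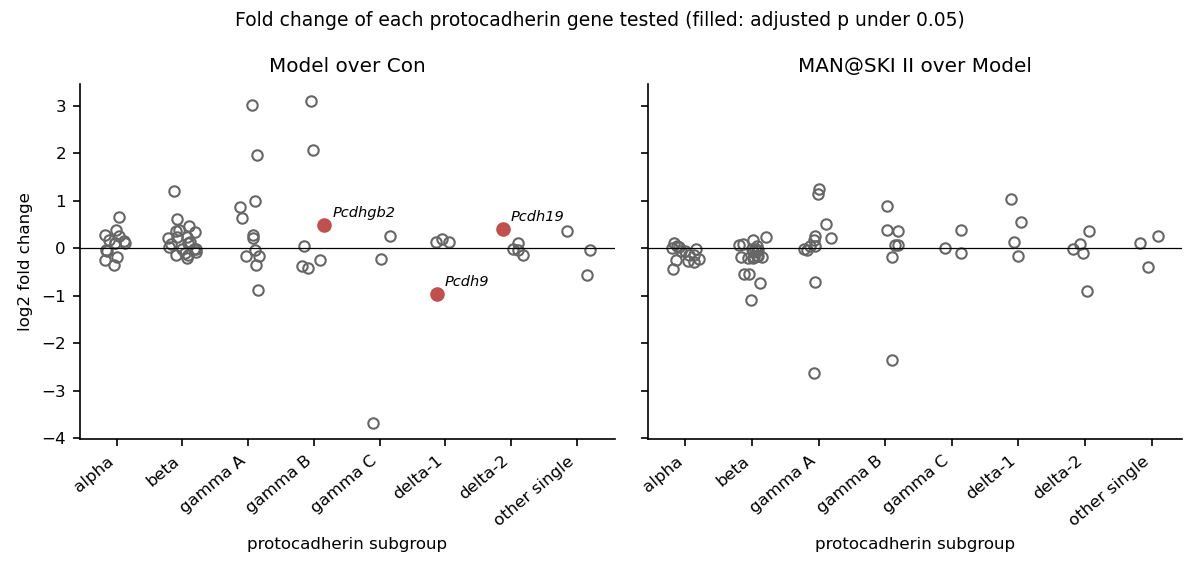
Log2 fold change (vertical axis) of each protocadherin tested, by subgroup, for Model over Con (left) and MAN@SKI II over Model (right), with filled points for an edgeR adjusted p under 0.05. Filled points are Pcdhgb2 (0.49), Pcdh19 (0.41) and Pcdh9 (-0.97) on the left and none on the right, and the widest scatter is among gamma genes (-3.67 to 3.11 in Model over Con).

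The remaining single genes did not pass in Model against Con. Pcdh1 had 455, 372 and 475 CPM in MAN@SKI II mice, 472, 507 and 473 CPM in Model, and 403, 422 and 441 CPM in Con. All Model libraries exceeded all Con libraries, with a log2 fold change of 0.20 ± 0.09 (SE) and an edgeR adjusted p of 0.234. It was called without MAN@SKI II 2 (adjusted p 0.0173) and when only the 6 libraries were fitted (0.0242). Pcdh17, which recruits the actin regulator WAVE in growing axons and shapes synapses in mouse, had 93.5, 107 and 88.4 CPM in MAN@SKI II mice, 96.6, 94.9 and 101 CPM in Model, and 109.6, 106.7 and 108.3 CPM in Con. Model lay below Con without overlap, with an edgeR adjusted p of 0.293. In MAN@SKI II against Con edgeR called Pcdh17 lower without MAN@SKI II 2 (log2 fold change -0.25, adjusted p 0.0136). Pcdh10, which promotes removal of excitatory synapses in mouse, had 138, 155 and 121 CPM in MAN@SKI II mice, 128, 134 and 126 CPM in Model, and 113, 120 and 127 CPM in Con. Model and Con overlapped. In MAN@SKI II against Con edgeR called Pcdh10 higher without MAN@SKI II 3 (log2 fold change 0.29, adjusted p 0.047). Pcdh20 had 130, 184 and 132 CPM in MAN@SKI II mice, 139, 133 and 140 CPM in Model, and 139, 147 and 137 CPM in Con, where MAN@SKI II 2 alone stood apart. Pcdh7, a delta-1 gene whose product binds protein phosphatase 1, had 41.0, 35.8 and 37.3 CPM in MAN@SKI II mice, 33.8, 40.1 and 30.7 CPM in Model, and 32.1, 30.2 and 33.3 CPM in Con, where MAN@SKI II exceeded Con without overlap.

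Pcdh15, Pcdh11x, Pcdh18 and Pcdh12 were the lowest single genes. Pcdh15, part of the tip links of hair cells, had 15.3, 12.2 and 19.7 CPM in MAN@SKI II mice, 7.97, 16.005 and 15.6 CPM in Model, and 9.89, 10.3 and 10.4 CPM in Con. MAN@SKI II exceeded Con without overlap, with a log2 fold change of 0.63 ± 0.26 (SE) and an edgeR adjusted p of 0.190. Pcdh15 was called by edgeR in this comparison without Model 1 (adjusted p 0.0470). Pcdh11x had 5.18, 13.4 and 9.27 CPM in MAN@SKI II mice, 6.11, 6.73 and 5.97 CPM in Model, and 4.43, 7.01 and 5.70 CPM in Con. In MAN@SKI II against Con edgeR called Pcdh11x higher without MAN@SKI II 1 (log2 fold change 0.98, adjusted p 0.0267). Pcdh18, whose product binds the adaptor Dab1 in mouse, had 6.91, 7.85 and 5.69 CPM in MAN@SKI II mice, 5.63, 5.62 and 4.74 CPM in Model, and 5.79, 4.42 and 6.29 CPM in Con. MAN@SKI II exceeded Model by a narrow margin. Pcdh12 stayed near the detection floor, with 0.346, 0.141 and 0.639 CPM in MAN@SKI II mice, 0.420, 0.696 and 0.390 CPM in Model, and 1.04, 0.413 and 0.799 CPM in Con.

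**Figure D5:**
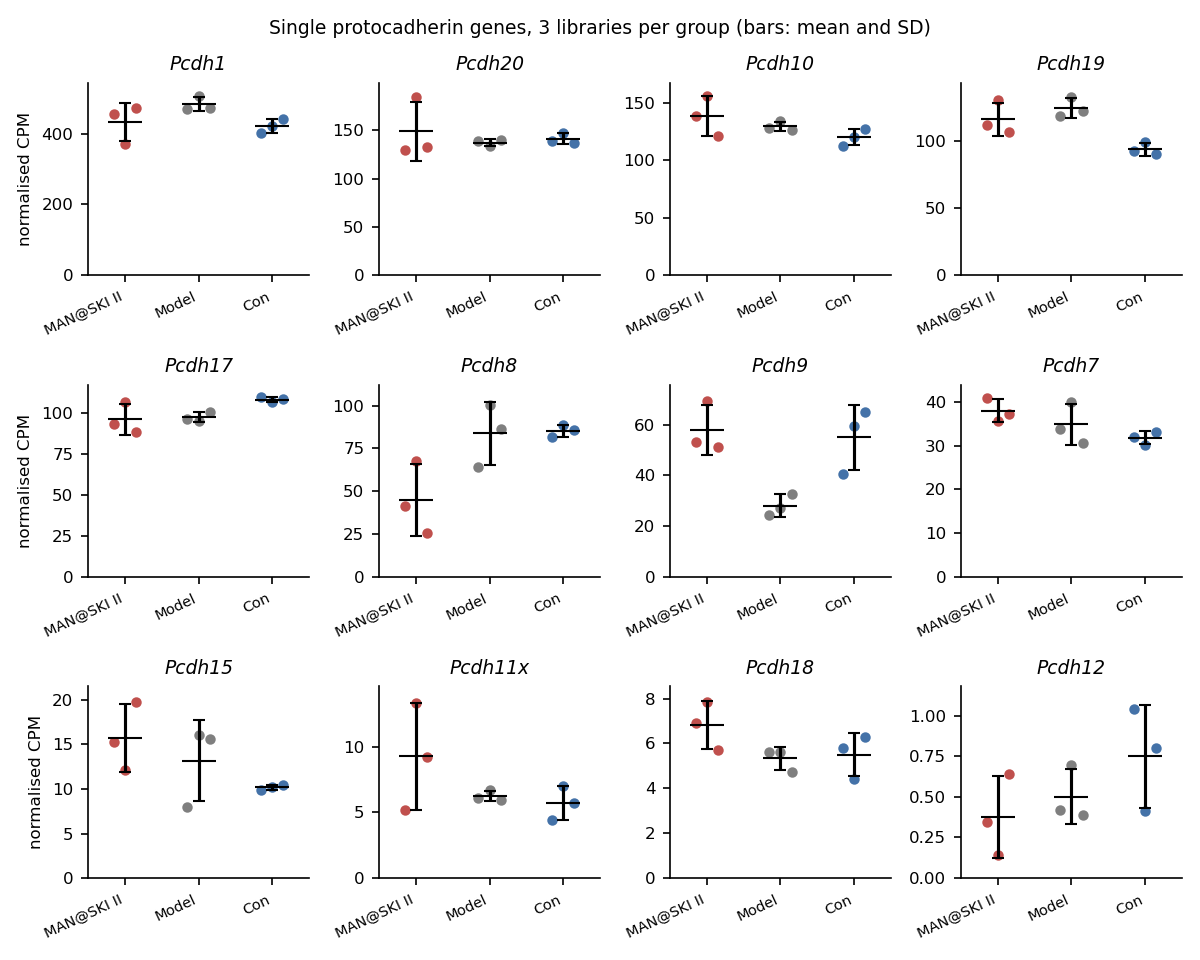
Normalised CPM (vertical axes, starting at 0) of the 12 single protocadherins in each library (points) by group, with the mean and SD as black bars, in order of mean CPM. In Pcdh19 the MAN@SKI II and Model libraries (107 to 133 CPM) lie above Con (89.9 to 99.3 CPM), in Pcdh9 Model (24.2 to 32.8 CPM) lies below MAN@SKI II (51.3 to 69.3 CPM) and Con (40.7 to 65.1 CPM), and in Pcdh8 MAN@SKI II (25.8 to 67.5 CPM) lies below Con (81.5 to 88.4 CPM).

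Treatment within BTBR, MAN@SKI II against Model, gave 0 calls among the 69 protocadherins with edgeR's quasi-likelihood test, as it did over all genes (0.00%). At an unadjusted p under 0.05 there were 5 protocadherins (7.25%), against 4.82% of all genes, namely Pcdh8, Pcdh9, Pcdhb5, Pcdhga5 and Pcdhga9. DESeq2 called 1 protocadherin, Pcdh9, among 15 calls over all genes, and limma-voom called 0. Without Model 3 edgeR called 1, Pcdhga5, as lower. This gene had 24.7, 21.6 and 10.4 CPM in Model and 10.7 to 12.5 CPM in MAN@SKI II, so the library left out was the low one of Model. Groups did not overlap for 4 genes that were higher and 4 that were lower in MAN@SKI II, which is 11.6% of the 69, against 9.43% of all genes. The median log2 fold change was -0.02 over protocadherins, -0.10 over alpha, -0.16 over beta, 0.07 over gamma and 0.11 over single genes, and 0.00 over all genes.

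Pcdh9 had the smallest p of the family in this comparison. Its 3 MAN@SKI II libraries (51.3 to 69.3 CPM) all exceeded its 3 Model libraries (24.2 to 32.8 CPM), at a log2 fold change of 1.04 ± 0.19 (SE), an unadjusted p of 0.000394 and an adjusted p of 0.864 with edgeR. DESeq2 gave an adjusted p of 0.000115. The Model libraries also enter Model against Con, so the values of both comparisons are set side by side without a further test, and MAN@SKI II against Con gave 0.07 ± 0.19 (SE) for Pcdh9. Leaving out each library in turn gave 0.89 to 1.17 in MAN@SKI II against Model. Pcdhb5 had 4.89, 5.80 and 4.79 CPM in MAN@SKI II mice, 7.01, 7.89 and 7.75 CPM in Model, and 6.90, 5.31 and 6.98 CPM in Con, with no overlap between MAN@SKI II and Model and an edgeR adjusted p of 0.914.

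Pcdh8, also called arcadlin, is induced by neuronal activity in rat hippocampus and reduces N-cadherin at the synapse. It had 41.3, 67.5 and 25.8 CPM in MAN@SKI II mice, 64.4, 101 and 86.4 CPM in Model, and 81.5, 88.4 and 85.7 CPM in Con. MAN@SKI II overlapped with Model in MAN@SKI II 2 and lay wholly below Con. The log2 fold change was -0.90 ± 0.33 (SE) in MAN@SKI II against Model, with an unadjusted p of 0.0281 and an edgeR adjusted p of 0.914, and -0.93 ± 0.33 (SE) in MAN@SKI II against Con, with an adjusted p of 0.156. In the second comparison limma-voom gave an adjusted p of 0.0455, and edgeR gave 0.0361 without MAN@SKI II 2. Arc and Fos, activity-induced genes chosen after the Pcdh8 values were seen, are given beside it. Arc had 101, 95.5 and 143 CPM in MAN@SKI II mice, 141, 200 and 160 CPM in Model, and 130, 147 and 140 CPM in Con, and Fos had 6.39, 4.67 and 11.9 CPM in MAN@SKI II mice, 14.9, 21.5 and 14.3 CPM in Model, and 9.76, 15.4 and 12.8 CPM in Con. Fos in MAN@SKI II lay wholly below Model, and Arc overlapped between these groups. Both genes overlapped between MAN@SKI II and Con. Within MAN@SKI II the library with the lowest Pcdh8, MAN@SKI II 3, had the highest Arc and Fos. The part of neuronal activity in the Pcdh8 values was not tested.

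In MAN@SKI II against Con, Pcdh19 and Pcdhgb2 rose and no protocadherin fell, so edgeR called 2 of 69, against 8.13% of all genes. Groups did not overlap for 8 protocadherins that were higher and 2 that were lower, which is 14.5% of the 69, against 27.3% of all genes. DESeq2 called 4 (Pcdh19, Pcdhgb2, Pcdhgb4 and Pcdhgc4), among 1681 calls over all genes, and limma-voom 2 (Pcdhgb2 and Pcdh8), among 1389. Without Con 1 or Con 2 edgeR called none, and with the choroid plexus covariate it also called none. Without Model 2 or Model 3 it called 1, Pcdhgb2. Without MAN@SKI II 1 it also called 1, but this was Pcdh11x (adjusted p 0.0267), and the calls of Pcdh19 and Pcdhgb2 were lost. Of the 12 single genes 7 had an unadjusted p under 0.05 in this comparison, namely Pcdh7, Pcdh8, Pcdh10, Pcdh11x, Pcdh15, Pcdh17 and Pcdh19, against 4 of 57 clustered genes and 21.6% of all genes.

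Genes that work with protocadherins were examined as lists, beside 7.64% of all genes called and 19.6% at an unadjusted p under 0.05 in Model against Con, 0.00% and 4.82% in MAN@SKI II against Model, while MAN@SKI II against Con had 8.13% and 21.6%. None of 20 regulators of cluster promoters and chromatin, such as Ctcf, Rad21 and Smchd1, was called by edgeR in any comparison, with 1 at an unadjusted p under 0.05 in Model against Con, 2 in MAN@SKI II against Model and 3 in MAN@SKI II against Con, and 0 by DESeq2 in each. Of 28 intracellular partners and effectors 1 rose in Model against Con and in MAN@SKI II against Con. It was Abi1, a subunit of the WAVE complex that protocadherins recruit, with 170 ± 18.2 CPM in MAN@SKI II, 166 ± 1.40 CPM in Model and 121 ± 14.5 CPM in Con (SD, n = 3 each). Its log2 fold change was 0.45 ± 0.10 (SE) in Model against Con (edgeR adjusted p 0.0141) and 0.49 ± 0.10 (SE) in MAN@SKI II against Con (adjusted p 0.00935), and with the choroid plexus covariate it was 0.21 and 0.27 and not called. Of 36 other cadherin superfamily genes tested, 2 rose in Model against Con (Cdhr1, 1.32, and Cdh22, 0.57 on the log2 scale) and 3 fell (Cdhr3, -2.04, Dchs2, -1.90, and Cdh19, -1.14). In MAN@SKI II against Con 2 rose (Cdhr1, 1.36, and Cdh22, 0.42) and 3 fell (Dchs2, -1.06, Cdh19, -0.58, and Cdh24, -0.31). With the choroid plexus covariate the 1 call kept among these was Cdh19 in Model against Con. No gene of the partner or cadherin lists was called by edgeR in MAN@SKI II against Model.

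Around the clusters, 72 other genes lie within 500 kb, and 34 were tested. In Model against Con 1 fell, the antisense gene Gm26672, which overlaps 19 gamma genes on the opposite strand. It had 0.583 ± 0.275 CPM in Model and 1.66 ± 0.335 CPM in Con (SD, n = 3 each), with a log2 fold change of -1.50 ± 0.40 (SE) and an edgeR adjusted p of 0.0441. Without a stated strand setting its reads cannot be told apart from those of the gamma genes. It held 5 to 31 counts per library and was called in 8 of 19 alternatives, at log2 fold changes of -1.82 to -1.06.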

How the data were processed

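Hippocampal poly(A) RNA of 9 mice was read in pairs of ends, with 3 libraries per group. The authors deposited raw counts per gene, whole numbers without normalization, and FPKM values in the same table, per the file headers. HISAT2 2.0.4, StringTie 1.3.3b, Bowtie2, edgeR 3.2.0 and the build GRCm39 are named in the submitters' processing notes, while for the counting program, annotation and strand the sources used here give nothing. The deposited FPKM were used only to compare lengths: for 50 of the 70 protocadherins the length they imply was the sum of all transcript lengths. For many of these, such as Pcdhb9 (3055 bases), that sum equals the exon union, so the match cannot tell them apart. In others the implied length differed from the sum, such as 44554 against 200294 bases in Pcdh15. Levels per kb were computed from counts and the exon union of GENCODE M21 (GRCm38), matched by gene ID.

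Counts were tested with edgeR 4.0.16 in R 4.3.3. The filter filterByExpr kept 17550 genes, TMM factors scaled the libraries, and a robust quasi-likelihood model with the group as its term was fitted to all 9 libraries, so the groups share an estimate of the spread. Tests are two-sided. A call means an adjusted p under 0.05 after Benjamini-Hochberg correction across every gene in the fit. The procedure was tested on simulated counts with the same dispersion (spread between libraries) for every gene. That test does not cover genes that vary as widely as many gamma genes. The titles call the replicates biological, and p-values measure the spread between these samples.

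As alternatives, RLE factors or none, no filter on low counts, 1 CPM in 3 libraries as a filter, DESeq2 1.42.0, limma-voom (limma 3.58.1), the 6 libraries compared alone, a replicate block, a choroid plexus covariate, both BTBR groups against Con, sums without the gene of most counts, and each library left out were run. Members, lists and tests were chosen with earlier results of these data known. Values are given for every called gene, every single gene and the 2 highest genes by mean CPM of each clustered subgroup, and other named genes were chosen after their values were seen. Floors of 3 counts cover counting error only. Figures were drawn with matplotlib 3.10.9 in Python 3.11.15.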

Additional observations from a re-analysis of the deposited data

How the results depend on the processing

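The directions of Pcdh19, Pcdh9 and Pcdhgb2 in the comparisons that called them, and those of the called partner, cadherin and flanking genes, held under every alternative that was run. Counts of called protocadherins with RLE factors, no factors, no filter or the stricter filter were within 1.5 times those reported. DESeq2 called 6 in Model against Con, 1 in MAN@SKI II against Model and 4 in MAN@SKI II against Con. The choroid plexus covariate left 0 in Model against Con and 0 in MAN@SKI II against Con, and fitting only the 6 libraries compared gave 5 and 1. Leaving out each library gave 1 to 5 calls in Model against Con, 0 to 1 in MAN@SKI II against Model and 0 to 3 in MAN@SKI II against Con. The replicate numbers were not treated as pairs in the main fit. In deviations from the group mean, same-numbered libraries correlated at -0.064 to 0.052, and not every sample correlated best with its own number. With 3 libraries per group this check cannot show whether samples were handled in pairs. The replicate block gave 2, 0 and 1 calls in the 3 comparisons, and Pcdhgb2 had adjusted p of 0.102 in Model against Con and 0.0605 in MAN@SKI II against Con with edgeR. The alpha sum without Pcdhac2 differed by -0.024 in MAN@SKI II against Con (0.065 with it), the gamma sum without Pcdhgb8 by 0.17 in Model against Con (0.073 with it) and 0.20 in MAN@SKI II against Con (0.076 with it), and the single gene sum without Pcdh1 by 0.0060 in Model against Con (0.084 with it) and 0.018 in MAN@SKI II against Model (-0.048 with it), all on the log2 scale. Each shift is the contribution of the left-out gene to its sum.

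Signs of uncalled log2 fold changes turned as follows. With the choroid plexus covariate Pcdh10 was -0.076, Pcdh12 was 0.99, Pcdhb17 was -0.15, Pcdhga11 was 1.00, Pcdhgc5 was 0.012 in Model against Con, and Pcdhb17 was 0.013, Pcdhgc5 was -0.025 in MAN@SKI II against Model, and Pcdh12 was 0.47, Pcdh20 was -0.12, Pcdh9 was -0.37, Pcdhb17 was -0.14 in MAN@SKI II against Con. With both BTBR groups against Con Pcdh18 was 0.13, Pcdh20 was 0.019, Pcdhga11 was 0.22. Without factors Pcdhgc5 was -0.0069 in MAN@SKI II against Model. Without a filter Pcdhgc5 was -0.0027 in MAN@SKI II against Model. Leaving out each library in Model against Con, Pcdh11x ranged from -0.020 to 0.30, Pcdh18 ranged from -0.18 to 0.064, Pcdh8 ranged from -0.18 to 0.13, Pcdhb9 ranged from -0.090 to 0.066, Pcdhga1 ranged from -0.40 to 3.57, Pcdhgb8 ranged from -2.94 to 0.69. Leaving out each library in MAN@SKI II against Model, Pcdh15 ranged from -0.0019 to 0.42, Pcdh17 ranged from -0.10 to 0.039, Pcdh20 ranged from -0.066 to 0.21, Pcdha12 ranged from -0.024 to 0.21, Pcdhac2 ranged from -0.11 to 0.032, Pcdhb17 ranged from -0.069 to 0.055, Pcdhb9 ranged from -0.13 to 0.026, Pcdhga1 ranged from -3.49 to 3.40, Pcdhgb4 ranged from -0.17 to 3.29, Pcdhgb8 ranged from -5.06 to 2.35, Pcdhgc5 ranged from -0.26 to 0.26. Leaving out each library in MAN@SKI II against Con, Pcdh1 ranged from -0.031 to 0.14, Pcdh20 ranged from -0.10 to 0.17, Pcdh9 ranged from -0.11 to 0.21, Pcdhga1 ranged from -0.46 to 3.55, Pcdhga11 ranged from -0.16 to 1.16, Pcdhgb8 ranged from -5.48 to 0.51. Levels under 0.159 to 0.203 CPM, the range that 3 counts cover in these libraries, were not detectable, which bears on Pcdh12 and on the beta genes at 0.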
